A study of Mus musculus with 23 samples.

Results

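The 6 genes described here encode the calcium release channels of the endoplasmic and sarcoplasmic reticulum: the ryanodine receptor genes Ryr1, Ryr2 and Ryr3, and the inositol trisphosphate (IP3) receptor genes Itpr1, Itpr2 and Itpr3. They were taken by symbol from a read count table of 23512 features, and all 6 passed the filter on low counts that left 13941 genes to test. The set was selected on the measured level of Ryr3, which was lower in haploinsufficient than in wild-type hearts of these same libraries, so the levels of all 6 genes in that contrast, and of Ryr3 in every contrast, are given as descriptions without a p-value. RNA was sequenced from mouse hearts at embryonic day 13.5 in 3 groups with the same strain label, C57BL/6. The 8 wild-type libraries came from hearts that were wt/wt at GRK2, GRK5 and GRK6 and had no Cre. The 8 GRK-haploinsufficient libraries came from hearts that were GRK2 fl/wt, GRK5 fl/fl and GRK6 KO/KO with Nkx2.5Cre. The 7 GRK-triple knockout libraries came from hearts that were GRK2 fl/fl, GRK5 fl/fl and GRK6 KO/KO with Nkx2.5Cre. Throughout, n counts libraries. Both mutant groups therefore shared the Cre driver, the floxed GRK5 alleles and the GRK6 knockout, and differed by label in 1 GRK2 allele. Nkx2.5Cre drives recombination in the cardiac lineage, so other cells of the heart can keep the floxed alleles, and the wild-type group is no Cre-only control.

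In heart muscle, an electrical signal opens L-type calcium channels of the surface membrane, and the entering calcium opens ryanodine receptors, which release more calcium from the sarcoplasmic reticulum. Ryr2 is the cardiac form, Ryr1 the skeletal muscle form, and Ryr3 a form found at lower levels in brain, smooth muscle and developing muscle. IP3 receptors respond instead to IP3, which phospholipase C makes after activation of Gq-coupled receptors. G-protein coupled receptor kinases (GRKs) phosphorylate activated receptors and so limit such signals. Both families form tetramers around a pore near the carboxy terminus, and calcium itself regulates their opening.

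The coding sequence around the pore is shown first because the 6 genes are paralogs counted from reads of 50 nt, and it shows how far apart they are where they are most alike in function. Each line gives 60 bases of GENCODE transcript sequence on the GRCm38 (mm10) build, 5′ to 3′ on the coding strand, with the 18 bases that encode the selectivity filter in capitals.
Ryr1: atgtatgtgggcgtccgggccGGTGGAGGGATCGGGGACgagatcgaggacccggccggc
Ryr2: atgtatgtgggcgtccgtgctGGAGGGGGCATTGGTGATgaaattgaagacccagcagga
Ryr3: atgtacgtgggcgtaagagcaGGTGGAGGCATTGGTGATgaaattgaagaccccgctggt
Itpr1: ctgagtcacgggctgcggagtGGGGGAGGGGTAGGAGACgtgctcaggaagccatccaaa
Itpr2: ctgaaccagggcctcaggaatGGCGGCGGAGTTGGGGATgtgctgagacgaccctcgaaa
Itpr3: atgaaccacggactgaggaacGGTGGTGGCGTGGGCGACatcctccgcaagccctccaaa

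Each stretch lay within 1 coding exon. The Ryr3 stretch, at chr2:112636610-112636669 on the minus strand, was in exon 100 of 104, the Ryr2 stretch, at chr13:11560606-11560665 on the minus strand, in exon 101 of 105, and the Ryr1 stretch, at chr7:29005577-29005636 on the minus strand, in exon 102 of 106. The Itpr1 stretch, at chr6:108518767-108518826 on the plus strand, was in exon 58 of 62, the Itpr2 stretch, at chr6:146158890-146158949 on the minus strand, in exon 52 of 56, and the Itpr3 stretch, at chr17:27118610-27118669 on the plus strand, in exon 54 of 58. Over these 60 bases Ryr3 differed from Ryr2 at 10 positions and from Ryr1 at 15, and from Itpr1, Itpr2 and Itpr3 at 36, 29 and 31. Within the 18 filter bases Ryr3 differed from Ryr2 at 2 positions and from Ryr1 at 4.

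Along the whole coding sequence, identity ran from 64.9% to 66.5% between ryanodine receptor genes and from 64.8% to 67.9% between IP3 receptor genes. The longest identical run between any pair of transcripts was 35 bases, between Ryr1 and Ryr2, and that of Ryr3 with either was 30 bases. No stretch of 50 bases was shared between any of the 6 transcripts, so a read of that length without mismatches falls in 1 of them. Ryr3 shared 797 of its 15361 stretches of 50 bases (5.19%) with Aven, a gene on the opposite strand whose 3′ end runs into that of Ryr3 in GENCODE. The libraries did not keep the strand, so reads of this part cannot be assigned by sequence, although the deposited gene models gave the 6 genes no exon base in common with another gene. Aven was counted at 14.2 ± 2.75 CPM (counts scaled by library size; SD, n = 8) in wild-type, 14.3 ± 4.04 (n = 8) in haploinsufficient and 11.9 ± 2.46 (n = 7) in triple-knockout hearts, with overlapping ranges.

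The libraries held 1757257 to 14050559 counts, and the limit of 3 counts for a gene without reads corresponds to 0.199 to 1.75 CPM over the libraries, which covers counting error only. Cre was counted at 0 to 7 reads in wild-type libraries, 30 to 129 in haploinsufficient and 58 to 235 in triple-knockout libraries. Exons 3 to 6 of Grk6 had 20 to 71 reads in wild-type libraries and at most 2 in either mutant group. Exons 3 to 6 of Adrbk1, the gene of GRK2, ranged over 1.55 to 3.79 CPM, 0.247 to 3.33 CPM and 0.429 to 2.69 CPM in the 3 groups in the same order. Exons 7 to 8 of Grk5 ranged over 1.02 to 3.85, 0 to 2.33 and 0.425 to 1.13 CPM, so reads of both floxed genes were still found in the mutant groups and the ranges overlapped. The 8 cardiomyocyte markers summed to 32750 to 83500 CPM over all libraries. A score of markers of lung, foregut, liver and thymus, tissue that can be carried over in dissection, lay over 1.5 log2 units above the wild-type mean in 7 libraries: wild-type replicate 4, haploinsufficient replicates 1, 7 and 8, and triple-knockout replicates 1, 3 and 7. The libraries carry IDs 1 to 12 or 19 to 30, with 4 and 4, 4 and 4, and 3 and 4 libraries of the 3 groups, and the fit has a term for this ID set. Whether each library came from its own embryo is not stated in the labels, so the p-values reflect only the spread between libraries, part of which may be technical.

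Per length of exon, Ryr2 was the most abundant of the 6 genes in all 3 groups. Wild-type means, as RPKM (CPM per kilobase of exon), were 60.3 ± 10.7 for Ryr2, 25.3 ± 2.84 for Itpr1, 12 ± 1.58 for Itpr2, 5.76 ± 1.34 for Ryr3, 5.37 ± 0.960 for Itpr3 and 0.242 ± 0.230 for Ryr1 (SD, n = 8). Neighbours in this order did not overlap in their ranges except for Ryr3, at 3.71 to 7.39 RPKM, and Itpr3, at 3.66 to 6.56 RPKM, whose levels did not differ beyond their spread. In both mutant groups Ryr3 stood below Itpr3 instead. This change of order rests on libraries on which Ryr3 was selected, so it is a description and no test. The highest haploinsufficient library held 3.01 RPKM of Ryr3 and the lowest held 3.49 RPKM of Itpr3. In the triple knockout the highest Ryr3 value was 3.84 RPKM and the lowest Itpr3 value 5.04 RPKM.

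As a share of the summed RPKM of the 6 genes, Ryr3 made up 5.30% ± 1.07 in wild-type hearts, 2.19% ± 0.563 in haploinsufficient hearts and 2.86% ± 0.524 in triple-knockout hearts. Ryr2 made up 55.0% ± 3.27, 53.3% ± 5.98 and 57.1% ± 3.76 in the same order, and Itpr1 23.3% ± 2.12, 25.9% ± 3.71 and 23.6% ± 2.26. Shares of 1 sum are not independent of each other, so a lower share of one gene raises the rest. Ryr2 and Itpr1 led the make-up of the channel genes in every group. The lower share of Ryr3 in haploinsufficient hearts restates the difference on which the genes were selected.

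**Figure D1:**
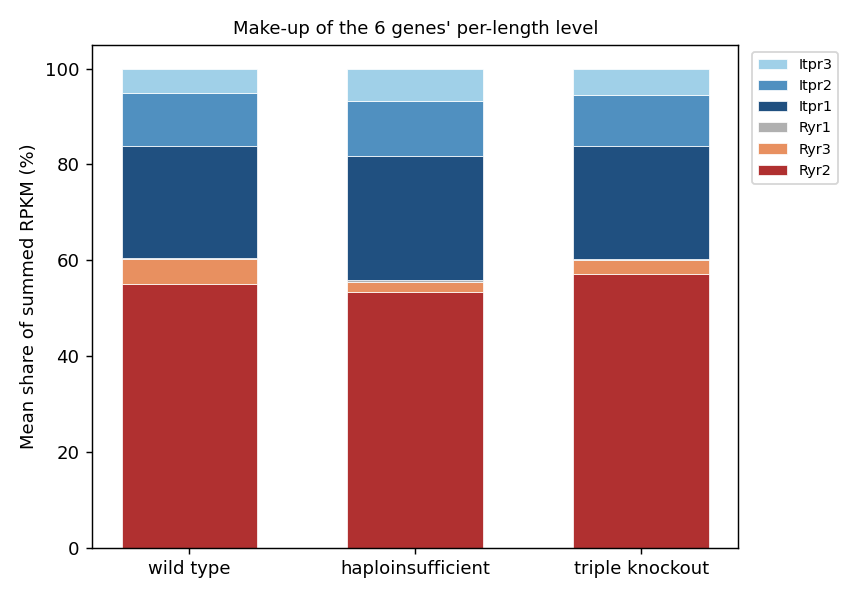
Stacked bars of the mean share (%) of each gene in the summed RPKM of the 6 channel genes, one bar per genotype group. Ryr2 takes over 50% of each bar, and the Ryr3 segment is 5.30% in the wild-type bar against 2.19% and 2.86% in the mutant bars.

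Ryr3 spans chr2:112631382-113030331 on the minus strand (mm10), with 104 exons and 15408 bp of exon. Its levels in wild-type hearts were 57.1 CPM at the lowest, 92.5 at the median and 114 at the highest, in counts per scaled library size (CPM). In haploinsufficient hearts the same values were 17.8, 26.8 and 46.4 CPM. In triple-knockout hearts they were 34.4, 47.5 and 59.1 CPM. All 8 haploinsufficient libraries lay below the lowest wild-type library. Among the triple-knockout libraries 6 of 7 did, and replicate 6, at 59.1 CPM, lay above wild-type replicate 7. Wild-type replicates 4 and 7, at 61.1 and 57.1 CPM, were the low ones of their group, the next being replicate 5 at 86.7 CPM. Haploinsufficient replicates 3 and 6, at 46.4 and 40.4 CPM, were the high ones of theirs.

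Mean Ryr3 levels were 88.8 ± 20.6 CPM (n = 8), 29.3 ± 9.53 CPM (n = 8) and 48.1 ± 7.57 CPM (SD, n = 7) in wild-type, haploinsufficient and triple-knockout hearts. The haploinsufficient level was 3.00-fold below wild type, a log2 difference of -1.59 ± 0.17 (SE, edgeR). In that comparison 2.24% of the 13941 genes were called, and 0.28% had groups that did not overlap with the haploinsufficient group the lower one; since this contrast chose Ryr3, nothing is read from its place among them. The triple-knockout level was 1.85-fold below wild type, a log2 difference of -0.88 ± 0.16, and 1.63-fold above the haploinsufficient level, a log2 difference of 0.70 ± 0.17. In the last comparison 5 of 7 triple-knockout libraries lay above the highest haploinsufficient one. These comparisons share libraries with the one that chose the gene, so they are descriptions too. The authors' deposited FPKM gave the same order, with means of 5.36 ± 1.28, 1.74 ± 0.586 and 2.99 ± 0.537.

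**Figure D2:**
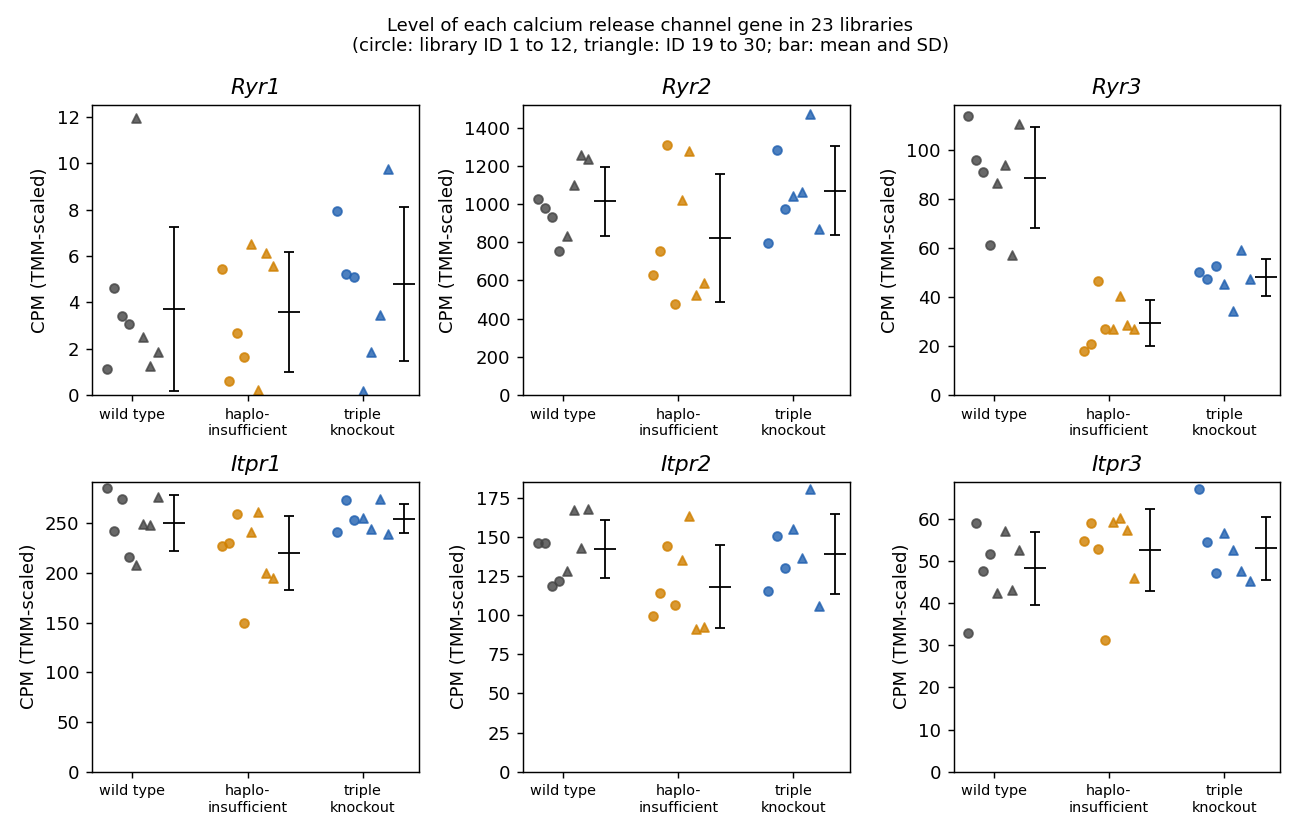
Level of each gene (CPM, y axis from 0, own scale per panel) in every library of the 3 groups, circles for library IDs 1 to 12 and triangles for IDs 19 to 30, with the mean and SD as bars. The haploinsufficient Ryr3 points, at most 46.4 CPM, all lie under the lowest wild-type point at 57.1 CPM, while the groups of the other 5 genes overlap.

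The order of the 3 groups for Ryr3 was the same in both sets of library IDs. Both sets are parts of the libraries on which Ryr3 was selected, so this is a description and no test. For IDs 1 to 12 the means were 90.5 ± 21.9 CPM (n = 4), 28 ± 12.8 (n = 4) and 50.2 ± 2.58 (n = 3). For IDs 19 to 30 they were 87.1 ± 22.4 (n = 4), 30.6 ± 6.55 (n = 4) and 46.6 ± 10.1 (n = 4). Fitted within each set, the haploinsufficient log2 difference from wild type was -1.66 ± 0.24 and -1.53 ± 0.20, and that of the triple knockout -0.85 ± 0.24 and -0.92 ± 0.20. Without the 7 libraries of a high carry-over score these differences were -1.5 ± 0.19 and -0.97 ± 0.19. Whether carry-over bears on the Ryr3 values was not tested.

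Ryr2 spans chr13:11553103-12106945 on the minus strand, with 105 exons and 16813 bp of exon. Its levels were 753 CPM at the lowest, 1001 at the median and 1256 at the highest in wild-type hearts. In haploinsufficient hearts they were 475, 692 and 1312 CPM, and in triple-knockout hearts 797, 1041 and 1471 CPM. The haploinsufficient group was the widest: its replicates 3, 5 and 6 lay at 1312, 1022 and 1277 CPM, and the other 5 lay below the lowest wild-type library. Means were 1014 ± 179, 823 ± 336 and 1070 ± 235 CPM. The haploinsufficient log2 difference from wild type was -0.30 ± 0.18 (SE). For the triple knockout it was 0.07 ± 0.19 (95% interval -0.33 to 0.47, adjusted p = 0.940 in edgeR's quasi-likelihood test with Benjamini-Hochberg adjustment), and between the mutant groups 0.37 ± 0.19 (interval -0.03 to 0.77, adjusted p = 0.353).

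Counting Ryr3 against Ryr2 within a library leaves out the scaling between libraries, but the ratio also moves with Ryr2, which was at -0.30 in haploinsufficient hearts. It reuses the libraries on which Ryr3 was selected, so the values are descriptions and no test. Ryr3 counts were 4.55% to 11.1% of Ryr2 counts in wild-type libraries, 2.63% to 5.65% in haploinsufficient and 3.24% to 6.30% in triple-knockout libraries, with medians of 9.36%, 3.35% and 4.36%. Wild-type replicate 7 had the lowest share of its group and was the only wild-type library inside the range of either mutant group. All haploinsufficient libraries had Ryr3 below the lowest wild-type library, but within the group Ryr3 was not level over Ryr2. Replicates 3 and 6, the highest in Ryr2 (1312 and 1277 CPM), were also the highest in Ryr3 (46.4 and 40.4 CPM). After group and ID set means were removed, Ryr2 and Ryr3 correlated at 0.48 over the 23 libraries.

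**Figure D3:**
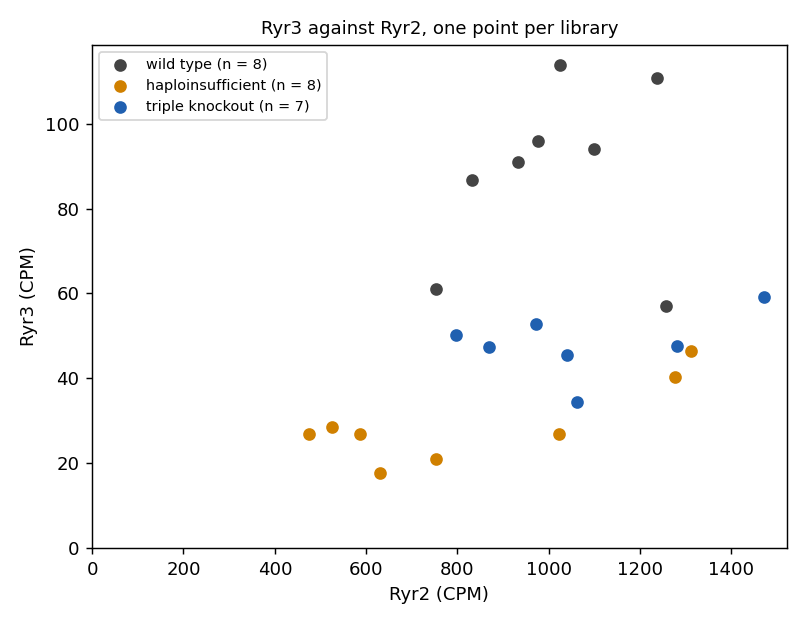
Ryr3 (y axis, CPM) against Ryr2 (x axis, CPM), 1 point per library, coloured by group. Haploinsufficient points run from 475 to 1312 CPM of Ryr2 with at most 46.4 CPM of Ryr3, and 7 of the 8 wild-type points lie above the mutant points, at 61.1 CPM of Ryr3 or more.

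Ryr1, the skeletal muscle form, lies at chr7:29003340-29125151 on the minus strand, with 106 exons and 15362 bp of exon. It was the least abundant of the 6 genes, with 1 to 120 counts a library. Its levels were 1.10 CPM at the lowest, 2.79 at the median and 11.9 at the highest in wild-type hearts. They were 0.230, 4.06 and 6.50 CPM in haploinsufficient hearts and 0.151, 5.09 and 9.77 CPM in triple-knockout hearts. Both lowest mutant values, in haploinsufficient replicate 6 and triple-knockout replicate 4, came from 1 count. They lay under the limit of 3 counts, which was 0.689 and 0.454 CPM in those libraries. Haploinsufficient replicate 2, at 0.583 CPM, lay under its limit of 1.75 CPM too. A single wild-type library, replicate 5, held the highest value, and all groups overlapped. The haploinsufficient log2 difference from wild type was 0.01 ± 0.54. For the triple knockout it was 0.37 ± 0.54 (95% interval -0.76 to 1.5, edgeR adjusted p = 0.877), and between the mutant groups 0.36 ± 0.55 (interval -0.80 to 1.52, adjusted p = 0.804). Without wild-type replicate 5 the differences from wild type were 0.65 ± 0.54 and 0.95 ± 0.53 (edgeR adjusted p = 0.589 for the latter). Without the libraries of a high carry-over score they were -0.56 for haploinsufficient and -0.47 for triple-knockout hearts. Whether carry-over bears on the Ryr1 values was not tested. Without triple-knockout replicate 7, at 9.77 CPM, the triple-knockout difference was 0.09 ± 0.58 from wild type (adjusted p = 0.989) and 0.07 ± 0.59 from the haploinsufficient group (adjusted p = 0.975). In IDs 1 to 12 alone the same differences were 0.99 ± 0.48 (adjusted p = 0.421) and 1.12 ± 0.51 (adjusted p = 0.295), and in IDs 19 to 30 alone -0.22 ± 0.84 and -0.30 ± 0.85. Tested directly by edgeR, the later ID set differed from the earlier by -1.19 (adjusted p = 0.811) and -1.42 (adjusted p = 0.668). Of the 7 skeletal muscle markers tested, 3 rose in each mutant group against wild type. Of all genes, 0.861% rose in haploinsufficient and 0.488% in triple-knockout hearts. The median log2 difference of the 7 was 0.05 and 0.79 in the same order. All 10 listed markers summed to 138.7 to 313.6, 222.1 to 331.3 and 184.8 to 392 CPM in the 3 groups. Ckm alone had means of 172, 176 and 152 CPM. The part of these markers in the Ryr1 values was not tested.

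Of the IP3 receptor genes, Itpr1 was the most abundant and the least variable. It spans chr6:108213096-108551116 on the plus strand, with 62 exons and 9877 bp of exon. Its levels were 208 CPM at the lowest, 249 at the median and 285 at the highest in wild-type hearts, 150, 228 and 261 CPM in haploinsufficient hearts, and 239, 253 and 275 CPM in triple-knockout hearts. Haploinsufficient replicate 4 was the low one, and all groups overlapped. The haploinsufficient log2 difference from wild type was -0.18 ± 0.10. For the triple knockout it was 0.03 ± 0.10 (95% interval -0.18 to 0.24, edgeR adjusted p = 0.961). Between the mutant groups it was 0.21 ± 0.10 (interval 0.00 to 0.42, edgeR adjusted p = 0.326).

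Itpr2, described as the main IP3 receptor of heart muscle cells, spans chr6:146108299-146502223 on the minus strand, with 57 merged exon blocks of 2 transcripts and 11823 bp of exon. Its levels were 119, 144 and 168 CPM at the lowest, median and highest in wild-type hearts, 91.1, 111 and 163 CPM in haploinsufficient hearts, and 106, 137 and 181 CPM in triple-knockout hearts. As for Ryr2, 5 of 8 haploinsufficient libraries lay below the lowest wild-type library and the groups overlapped. The haploinsufficient log2 difference from wild type was -0.27 ± 0.12. For the triple knockout it was -0.04 ± 0.13 (95% interval -0.30 to 0.22, edgeR adjusted p = 0.948), and between the mutant groups 0.23 ± 0.13 (interval -0.04 to 0.49, adjusted p = 0.393).

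Itpr3, a form found widely in epithelial and secretory cells, spans chr17:27057304-27122223 on the plus strand, with 58 exons and 8990 bp of exon. It lies 0.22 Mb from Nkx2-5, the gene for which the Cre driver is named, and it was not tested whether the driver allele bears on its level. Its levels were 32.9, 49.6 and 59.0 CPM at the lowest, median and highest in wild-type hearts, 31.4, 56.1 and 60.1 CPM in haploinsufficient hearts, and 45.3, 52.5 and 67.1 CPM in triple-knockout hearts. All groups overlapped. The haploinsufficient log2 difference from wild type was 0.12 ± 0.12. For the triple knockout it was 0.13 ± 0.13 (95% interval -0.13 to 0.40, edgeR adjusted p = 0.792), and between the mutant groups 0.01 ± 0.13 (interval -0.26 to 0.28, adjusted p = 0.976).

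Of the 5 genes other than Ryr3, edgeR called 0 in the triple knockout against wild type, where 1.18% of all genes tested were called, and 0 between the mutant groups, where 0.395% were. None of the 5 had an unadjusted p under 0.05 in either comparison, and DESeq2 and limma on log2 FPKM also called 0. For the triple knockout against wild type, the intervals of Itpr1, Itpr2 and Itpr3 leave out log2 differences beyond 0.40 in either direction. That of Ryr2 reaches 0.47 and that of Ryr1 reaches 1.5.

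**Figure D4:**
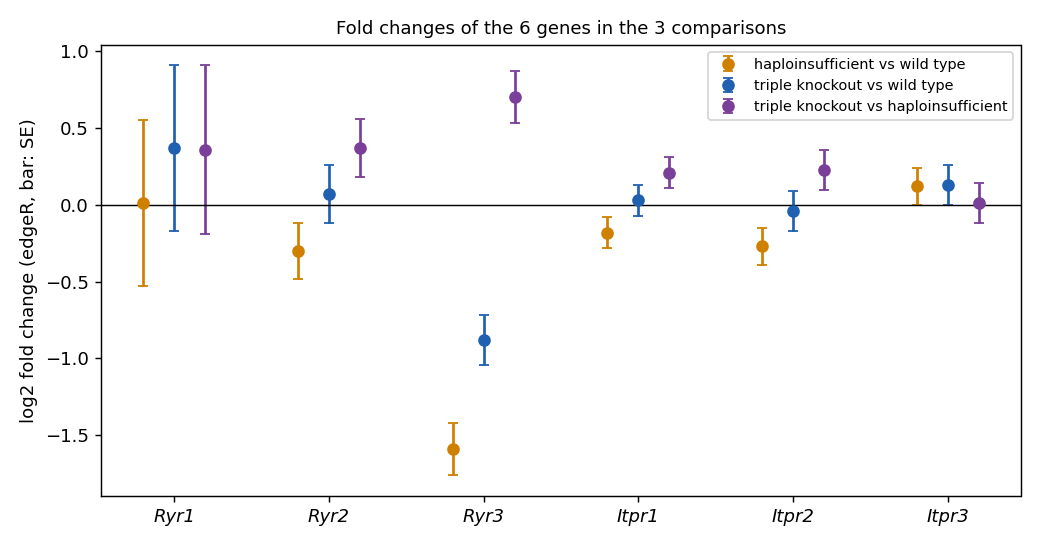
Log2 fold change (y axis, edgeR, bars: SE) of each gene in the 3 comparisons, which share libraries with each other. Ryr3 stands at -1.59 and -0.88 against wild type and 0.70 between the mutant groups, and the other 5 genes lie between -0.30 and 0.37.

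Ryr2, Itpr1 and Itpr2 varied together from library to library. Over the 23 libraries the Pearson correlation of log2 CPM was 0.85 between Ryr2 and Itpr1, 0.89 between Ryr2 and Itpr2, 0.51 between Ryr2 and Ryr3 and -0.18 between Ryr3 and Itpr3. These are descriptions, since values of a library share its depth, RNA quality and cell make-up. The genes most like Ryr2 over the 23 libraries, of 12082 ranked, were Dst (0.99), Sptbn1 (0.96), Ttn (0.95), Akap13 (0.94) and Hmcn1 (0.93), of which Ttn encodes the sarcomere protein titin. All 5 have over 11 kb of exon, from 11019 bp for Sptbn1 to 104320 bp for Ttn, while the median of the ranked genes was 3033.5 bp and 5.10% had 8000 bp or more. Most like Itpr1 were Macf1 (0.95) and Ttn (0.89), and most like Itpr2 were Mical2 and Ank3 (0.90 each).

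A score of 662 other genes with at least 8000 bp of exon, as log2 deviation from the wild-type mean relative to all genes, ran from -0.157 to 0.138 in wild-type, -0.330 to 0.158 in haploinsufficient and -0.149 to 0.257 in triple-knockout libraries. Its correlation with the genes over the 23 libraries was 0.76 for Ryr2, 0.69 for Itpr1, 0.57 for Itpr2, 0.53 for Ryr3, 0.12 for Ryr1 and 0.03 for Itpr3. With this score as a further term, chosen after seeing the data, the haploinsufficient log2 difference from wild type was -0.06 ± 0.14 for Ryr2, -0.08 ± 0.09 for Itpr1 and -0.15 ± 0.12 for Itpr2. For Ryr3 it was -1.42 ± 0.15, with -1.0 ± 0.14 for the triple knockout against wild type and 0.42 ± 0.17 between the mutant groups. The score itself differed between the groups, with medians of -0.008 in wild-type, -0.2325 in haploinsufficient and 0.085 in triple-knockout libraries. The term can therefore also take up part of a group difference, and what the score reflects was not tested. A score of the 8 cardiomyocyte markers had correlations of 0.77 with Itpr2, 0.70 with Ryr2, 0.54 with Itpr1, 0.27 with Itpr3, 0.15 with Ryr3 and -0.56 with Ryr1. Those markers summed to 49990 to 70420, 32750 to 81010 and 44950 to 83500 CPM in the groups in the order above, with a median log2 difference of 0.10 for haploinsufficient and 0.12 for triple-knockout hearts against wild type. In RNA of whole hearts, fewer cells of a type and less RNA per cell cannot be told apart.

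The genes whose levels were most like those of Ryr3 were shorter. They were Gramd1b (0.89), which encodes a cholesterol transfer protein, Wisp1 (0.87), a secreted matrix-associated protein, Npr3 (0.87), the clearance receptor for natriuretic peptides, Epb4.1l3 (0.86), a membrane skeleton protein, and Igfbpl1 (0.85), with 2729 to 6926 bp of exon. After group and ID set means were removed, the correlations were 0.60, 0.70, 0.75, 0.60 and 0.71 in the same order. Gramd1b had means of 29.9, 11.3 and 15.3 CPM and Igfbpl1 18.1, 7.37 and 8.51 CPM in wild-type, haploinsufficient and triple-knockout hearts. Since Ryr3 differed between the groups, genes that differ likewise rank high by construction. Most like Itpr3 were Plod3 (0.94) and Mia3 (0.87), and most like Ryr1 were Pdgfc (0.80) and Pcdh19 (0.78).

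Npr3 is also among the 8 markers of endothelium and endocardium, the inner lining of the heart. Of these, 3 fell in haploinsufficient hearts against wild type by edgeR, namely Cdh5 (log2 difference -0.60), Npr3 (-0.51) and Tek (-0.45), and 1, Npr3 (-0.46), fell in the triple knockout. Of all genes 1.38% fell in the first comparison and 0.696% in the second. The summed level of the 8 markers was 982.5 to 1300 CPM in wild-type, 848.1 to 1109 CPM in haploinsufficient and 972.3 to 1208 CPM in triple-knockout libraries, and no marker of the list was at 0 throughout a group. Of 11 markers of lung, foregut, liver and thymus 2 rose in haploinsufficient hearts, beside 0.861% of all genes, and 0 in the triple knockout. Their median log2 differences from wild type were 1.84 in haploinsufficient and 1.44 in triple-knockout hearts, the largest of the marker lists. Those of the 8 endothelial and endocardial markers were -0.30 and -0.09. The median log2 differences from wild type in haploinsufficient and triple-knockout hearts were -0.17 and -0.24 for 6 smooth muscle markers, 0.41 and 1.03 for 6 markers of neurons and glia, -0.13 and -0.21 for 5 blood markers and 0.00 and -0.03 for 4 epicardial markers. In the triple knockout the smooth muscle marker Tagln fell (log2 difference -0.49) and the neuronal marker Gap43 rose (0.55). The part of the endothelial and other markers in the Ryr3 values was not tested.

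Genes that work with the channels were taken as 79 partner genes in 3 lists, of which 77 passed the filter. The lists were 30 partners of ryanodine receptors (calmodulins, FKBP proteins, calsequestrins, junctophilins and kinases), 29 genes of IP3 production and IP3 receptor regulation, of which 27 were tested, and 20 genes of calcium uptake and entry. In haploinsufficient hearts against wild type 0 rose and 1 fell, beside 0.861% of all genes that rose and 1.38% that fell. The medians of the 3 lists were -0.06, -0.05 and -0.11 on the log2 scale, beside 0.01 over all genes, and 17 of 77 had an unadjusted p under 0.05, as did 17.2% of all genes. The gene that fell was Casq1, which encodes the calcium buffer calsequestrin of skeletal muscle. Its levels were 158 ± 20.3 CPM (n = 8) in wild-type and 100 ± 32.4 CPM (SD, n = 8) in haploinsufficient hearts, a log2 difference of -0.66 ± 0.17 (edgeR adjusted p = 0.0377). The call was made in 22 of 36 alternatives, with adjusted p from 0.00544 to 0.416. It was lost in each ID set alone, without the libraries of a high carry-over score, with the long-gene score as a term, and when any one of wild-type replicates 1, 2, 4, 6 and 8 or haploinsufficient replicates 1, 2, 5, 7 and 8 was left out, while the log2 difference stayed between -0.80 and -0.45 in all 36.

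In the triple knockout against wild type edgeR called 0 of the 77 partner genes, beside 1.18% of all genes, and DESeq2 and limma also called 0. An unadjusted p under 0.05 was found for 7 of 77, and for 10.8% of all genes. List medians were -0.04 for ryanodine receptor partners, 0.03 for IP3 genes and -0.01 for uptake and entry. Smallest in p of the first list were Casq1 at -0.46 ± 0.18 (edgeR adjusted p = 0.278), the junctional membrane gene Jph2 at -0.23 ± 0.14 and Sri, which encodes the ryanodine receptor regulator sorcin, at -0.17 ± 0.10. Of the IP3 genes they were Itprip, encoding an IP3 receptor interacting protein, at -0.30 ± 0.12 (adjusted p = 0.286), Itpripl2 at -0.23 ± 0.09, the scaffold gene Homer2 at -0.27 ± 0.13 and the phospholipase C gene Plcb1 at 0.40 ± 0.19. Of uptake and entry they were the plasma membrane calcium pump gene Atp2b1 at 0.31 ± 0.10 (adjusted p = 0.132), the sarcolipin gene Sln at 0.66 ± 0.30 and the pump gene Atp2a3 at -0.28 ± 0.18. None of these passed the threshold.

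Between the mutant groups edgeR called 0 of 77 partner genes, beside 0.395% of all genes. An unadjusted p under 0.05 was found for 11 of 77, and for 15.3% of all genes. DESeq2 called 1, Lrmp, and limma 0. The list medians were 0.06, 0.06 and 0.12, beside 0.00 over all genes.

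**Figure D5:**
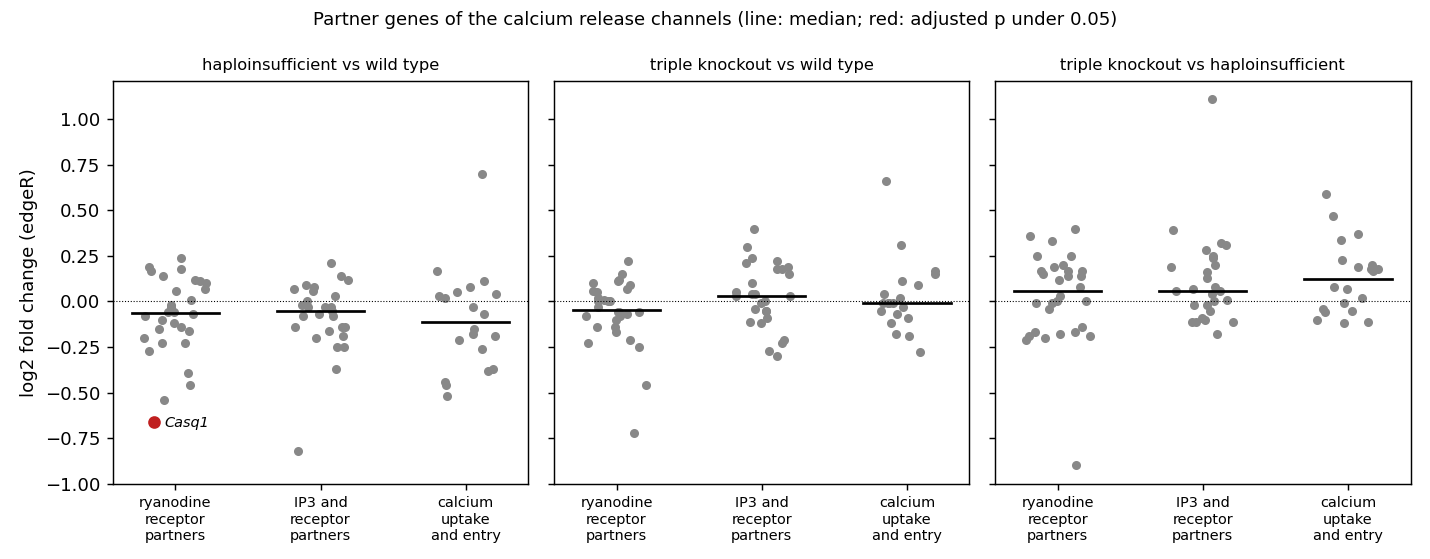
Log2 fold change (y axis, edgeR) of each tested partner gene in the 3 lists (x axis) for the 3 comparisons, with the list median as a line and called genes in red. Casq1 at -0.66 in haploinsufficient hearts against wild type is the only red point.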

How the data were processed

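Alignment to mm10 used TopHat2 2.0.10 and Bowtie2, counting used HTSeq, and FPKM came from Cufflinks 2.1, per the submitters' processing notes. The deposited table of the authors holds whole-number read counts for 23512 features, and the authors' FPKM table was used for alternatives and side values. Exon positions (other values, in base pairs) came from the gene models the authors deposited. Libraries were made per the labels' protocols from flash frozen hearts, with Trizol extraction, rRNA depletion, chemical fragmentation and no strand information, and read from a single end over 50 nt.

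Counts were fitted with edgeR 4.0.16 (R 4.3.3), quasi-likelihood, over all 23 libraries, modelling each group and the ID set, with TMM scaling, and the expression filter at a minimum count of 10 and total of 15. The 59 features of the targeted genes and Cre were left out. P-values were two-sided and Benjamini-Hochberg adjusted over 13941 genes, called under 0.05. The 95% intervals use the SE with 19 residual degrees of freedom. CPM use TMM-scaled library sizes, log2 CPM a prior count of 1, and RPKM the merged exon length. Alternatives used DESeq2 1.42.0 and limma 3.58.1 on log2(FPKM + 0.1) or log2(FPKM + 1). A carry-over score is the mean log2 CPM deviation of lung, foregut, liver and thymus markers from the wild-type mean. Sequences came from GENCODE transcripts of GRCm38. The scripts were tested on simulated data.

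The members and gene lists were chosen with earlier results of these data known. The text names the 6 genes. Of each partner list it names every called gene, up to 4, and otherwise up to the 4 with the smallest p in the triple knockout against wild type. It also names the 5 genes most correlated with Ryr3 and with Ryr2, and the 2 most correlated with each other member, among genes with a mean log2 CPM of at least 1. The closest replicate libraries, haploinsufficient replicates 1 and 2, still had a chi-square per degree of freedom of 5.00, so none was counted as a repeat.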

Additional observations from a re-analysis of the deposited data

Results flagged for a closer look

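Of 18 sets of levels examined, 6 genes in 3 groups, 1 held a library far from the others. Ryr1 stood at 11.95 CPM in wild-type replicate 5, with 111 counts, and the next highest wild-type library held 4.63 CPM. Chance marks about 1 in 20 such sets.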

How the results depend on the processing

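Over 13 alternatives the Ryr3 log2 difference kept its direction, at -1.66 to -1.21 for haploinsufficient and -1.0 to -0.65 for triple knockout against wild type, and 0.42 to 0.81 between the mutant groups. Leaving out each library gave -1.72 to -1.5, -0.96 to -0.82 and 0.62 to 0.83. These refits reuse the libraries on which Ryr3 was selected, so they describe the difference and do not test it. The other 5 genes were called in none of the 13 alternatives for the triple knockout, but some differences changed sign. Those of Ryr1 ran widely, from -0.47 to 0.99 against wild type and from -0.30 to 1.12 between the mutant groups. With the replicate block the values were -0.05 for Ryr2 and -0.03 for Itpr1 (triple knockout against wild type) and -0.04 for Itpr3 (between the mutant groups). In IDs 19 to 30 alone they were -0.22 for Ryr1 and 0.00 for Ryr2, and -0.30 for Ryr1 and -0.15 for Itpr3 between the mutant groups. Without libraries of a high carry-over score they were -0.47 for Ryr1 and 0.07 for Itpr2, and -0.03 for Itpr3 between the mutant groups. With the long-gene score as a term they were -0.07 for Ryr2 and -0.03 for Itpr1, and -0.01 for Ryr2 between the mutant groups. Leaving out single libraries gave -0.01 to 0.12 for Ryr2, -0.01 to 0.06 for Itpr1 and -0.10 to 0.02 for Itpr2, and -0.07 to 0.05 for Itpr3 between the mutant groups.

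Called partner genes of the haploinsufficient hearts numbered 1, but 0 in IDs 1 to 12 alone and 0 with the long-gene score, 2 without libraries of a high carry-over score (Cacna1g lower and Trdn higher, and not Casq1), and 0 to 3 when a library was left out. The 1 gene called in IDs 19 to 30 alone, and without haploinsufficient replicate 2, was Casq2 and not Casq1. Between the mutant groups they were 1 in IDs 1 to 12 alone (Cacna1g), 1 with DESeq2 (Lrmp) and 0 to 2 when a library was left out. Over all genes, haploinsufficient against wild type gave 312 calls, but 560 with DESeq2, 202 with the replicate block, 20 in IDs 1 to 12, 179 in IDs 19 to 30, 111 without high carry-over, 133 with the long-gene score and 152 to 612 when a library was left out (612 without haploinsufficient replicate 3). Triple knockout against wild type gave 165, but 291 with DESeq2, 296 with only these groups, 50 and 51 in the ID sets, 70 without high carry-over and 118 to 184 when a library was left out. Between the mutant groups 55 became 34 without composition scaling, 270 with DESeq2, 0 with limma at either pseudocount, 88 without the filter, 0 with the block, 1 with only these groups, 176 and 1 in the ID sets, 0 without high carry-over, 0 with the long-gene score and 10 to 416 when a library was left out. The cause was not tested.

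The replicate numbers did not pair the libraries: of 22 same-numbered pairs 5 had a correlation of deviations over 0.1 (range -0.20 to 0.47), and 2 of 23 libraries correlated best with their own number. Depth limits Ryr1, which had 1 to 120 counts a library.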
